A study of Mus musculus with 12 samples.

Results

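The muscarinic acetylcholine receptors and the genes of the cholinergic synapse were followed across 12 mouse brain arrays from animal models of Alzheimer's disease (AD). They are 10 genes, chosen by name, with earlier results of these data known: the muscarinic receptors Chrm1 to Chrm5, choline acetyltransferase (Chat), the vesicular acetylcholine transporter (Slc18a3), the choline transporter (Slc5a7), acetylcholinesterase (Ache), and the α7 nicotinic subunit (Chrna7). Through the transcript accession of each probe they were found on 13 of the 39429 probes, and they are 10 of the 20886 genes with a probe. A gene was taken as measured on an array where the scanner software marked at least 1 of its probes as well above background. By this criterion 7 of the 10 genes were measured on all 12 arrays. Chrm4 was missed on 1 array, Slc5a7 on 3, and Chrm5 on all 12.

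Each array carried RNA pooled from 3 animals, so there was 1 value for each model and no spread between animals. Prefrontal cortex was taken from C57BL/6 males at 4 ages, 1.5, 4, 17, and 22 months. The hippocampus of transgenic mice, labelled C57BL/6 although the methods name C57BL/6N for the controls of the NCSTN and 5×FAD lines, came from animals that overexpress mutated human NCSTN (10 months), wild-type human MAPT (12 months), or human APP with the Swedish, Florida, and London mutations (5×FAD, 6 months). The hippocampus of male ICR mice, 7 weeks old when treated, was taken 14 days after an injection into the cerebral ventricles, either of aggregated Aβ at 5 or 10 µM or of streptozotocin at 2.5 or at 3 mg/kg, or 30 min after scopolamine (1 mg/kg) was given intraperitoneally. The promoters that drive the transgenes are not given in the sources used here. Control arrays were not analysed here. Each array was therefore set against the other arrays of its own strain and region, so comparisons within such a group share arrays and a gene that is high on 1 array is lower on the others by construction.

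Cholinergic neurons make acetylcholine with choline acetyltransferase, load it into vesicles with the vesicular transporter, and after release take choline back through the choline transporter, while acetylcholinesterase ends the signal. The hippocampus and cortex receive most of their acetylcholine from axons of the basal forebrain, whose cell bodies and most of whose mRNA lie outside both regions. Receptors Chrm1, Chrm3, and Chrm5 act through Gq proteins and phospholipase C, Chrm2 and Chrm4 act through Gi proteins, and scopolamine blocks all muscarinic receptors. Loss of cholinergic input is a known feature of AD, and acetylcholinesterase is the target of drugs used in its treatment.

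Between 63.5% and 75.8% of the probes were well above background on an array, no spot was saturated, and quantile normalization moved the median of an array by -0.33 to 0.37 on the log2 scale. The tissue labels fit the markers: the mean log2 signal of 8 hippocampal genes was 10.05 to 10.72 on the hippocampus arrays and 6.91 to 7.46 on the cortex arrays, and that of 8 cortical genes was 9.35 to 9.55 on the cortex arrays and 7.18 to 8.23 on the others. The 3 transgenic arrays stand apart. Xist, the RNA that silences an X chromosome in females, had a log2 signal of 9.19 to 9.59 there and was not well above background on the other 9 arrays, whereas the Y-linked Ddx3y and Eif2s3y were well above background on those 9 arrays and on none of the 3, although the methods describe all the mice as male. Every comparison of transgenic with other hippocampus or with cortex also carries this difference. In pooled tissue, fewer cells of a type and less RNA per cell cannot be told apart.

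Chrm1 is the main muscarinic receptor of excitatory forebrain neurons. Chrm1 gave a log2 signal of 9.18, 8.68, 8.78, and 8.79 in cortex at 1.5, 4, 17, and 22 months. It was 9.33 on the NCSTN array, 9.32 on the MAPT array, and 9.08 on the 5×FAD array. Across the ICR arrays Chrm1 was 9.41 after 5 µM Aβ, 9.61 after 10 µM Aβ, 9.77 after 2.5 mg/kg streptozotocin, 9.87 after 3 mg/kg streptozotocin, and 9.51 after scopolamine. All 5 ICR values lay above all cortex and all transgenic values, and cortex and transgenic values overlapped. Its 2 probes, each assigned to a different transcript, disagreed on the 5×FAD array, where the dimmer probe was the lowest of the 3 transgenic arrays (6.01 against 6.74 and 6.52) and the brighter probe the highest (12.16 against 11.91 and 12.13).

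Chrm2, a Gi-coupled receptor that also acts as an autoreceptor on cholinergic axons, varied more. In cortex it was 6.78, 7.77, 7.07, and 6.79 in order of age, with the 4-month array above the other three ages. On the NCSTN, MAPT, and 5×FAD arrays Chrm2 was 6.31, 6.05, and 4.90. Its ICR values, in the order used for Chrm1, were 5.14, 5.75, 5.62, 5.58, and 5.87. Every cortex array was above every hippocampus array, and the 5×FAD array held the lowest of the 12 values, with the 5 µM Aβ array next.

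Chrm3, a Gq-coupled receptor, spanned a narrow range. In cortex it was 8.99, 8.89, 8.78, and 9.30 in order of age. NCSTN, MAPT, and 5×FAD had Chrm3 signals of 8.29, 8.60, and 8.38. ICR arrays gave 8.37, 8.62, 9.30, 8.94, and 8.90 in the same order as before. The transgenic values lay below all cortex values, and the ICR values reached from the transgenic range to the top of the cortex range.

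Chrm4, the Gi-coupled receptor best known from the striatum, was dim. Its cortex values were 5.16, 4.95, 5.40, and 5.60 in order of age. Chrm4 was 5.36, 5.94, and 5.17 on the NCSTN, MAPT, and 5×FAD arrays. After 5 µM Aβ it was 5.53, after 10 µM Aβ it was listed at 4.85 and was not well above background, and the remaining ICR values were 5.35, 5.14, and 5.09. The 3 sets of arrays overlapped throughout. Chrm5, the Gq-coupled receptor of midbrain dopamine neurons, stayed at background level on every array (1.69 to 3.30), so no fold is given for it.

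The presynaptic genes Chat, Slc18a3, and Slc5a7 are used together by cholinergic neurons, and Slc18a3 lies inside the Chat gene on the same strand, its start site 1059 bases from that of Chat in the RefSeq promoter table (GRCm38.p6, which is not named as the build of the arrays). The 250 bases before each start site are shown because the signals of the 3 genes were high together on 1 array. Of the 10 genes 9 have an entry in that table, and Chrm1 has none. Capitals mark CANNTG, the E-box letters, which read the same on both strands. The windows lie at chr14:32465910-32466159 for Chat, chr14:32464851-32465100 for Slc18a3, and chr17:54299035-54299284 for Slc5a7, all on the minus strand, and are written 5′ to 3′ in the direction of the gene.
Chat: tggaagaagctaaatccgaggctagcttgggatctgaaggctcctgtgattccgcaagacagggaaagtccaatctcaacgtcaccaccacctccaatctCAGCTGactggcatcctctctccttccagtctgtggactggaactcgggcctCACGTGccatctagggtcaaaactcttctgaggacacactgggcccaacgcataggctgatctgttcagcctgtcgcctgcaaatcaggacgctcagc
Slc18a3: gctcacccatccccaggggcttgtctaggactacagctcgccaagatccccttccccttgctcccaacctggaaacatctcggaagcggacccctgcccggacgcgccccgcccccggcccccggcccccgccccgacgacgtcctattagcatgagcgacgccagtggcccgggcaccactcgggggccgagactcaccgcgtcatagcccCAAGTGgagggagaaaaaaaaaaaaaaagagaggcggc
Slc5a7: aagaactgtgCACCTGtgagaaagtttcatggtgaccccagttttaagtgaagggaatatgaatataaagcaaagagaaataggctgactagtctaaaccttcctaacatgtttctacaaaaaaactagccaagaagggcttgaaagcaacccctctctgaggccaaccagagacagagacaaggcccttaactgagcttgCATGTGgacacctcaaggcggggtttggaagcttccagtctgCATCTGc
CANNTG occurred 2 times in the Chat window, 1 time in that of Slc18a3, and 3 times in that of Slc5a7, and 66.2% of all 32851 promoter windows of this length hold it, so its presence in all 3 is common. GGGCGG, searched on both strands, occurred 2 times before Slc18a3, on the reverse strand, and in neither of the other windows, with 32.7% of all windows holding it. TATAAA was found 1 time, before Slc5a7, against 12.4% of all windows on either strand. TGACG was found 1 time before Chat and 1 time before Slc18a3, both on the reverse strand, against 17.8% of all windows. TTCAGCACC, a part of the REST binding element, was in none of the 3 windows and in 0.301% of all windows. These are matches of letters only.

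Chat had a log2 signal of 8.05, 8.14, 7.70, and 7.82 in cortex in order of age. The NCSTN, MAPT, and 5×FAD arrays gave Chat signals of 8.14, 8.26, and 7.59. On the ICR arrays Chat was 7.51, 6.11, 6.82, 6.43, and 6.28, in the order 5 µM Aβ, 10 µM Aβ, 2.5 mg/kg streptozotocin, 3 mg/kg streptozotocin, and scopolamine. All ICR values were below all values of the other 7 arrays, and the 5 µM Aβ array came closest to them.

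Slc18a3 was 6.34, 6.07, 6.45, and 7.42 in cortex in order of age. Transgenic hippocampus gave 5.16, 5.49, and 6.23 for NCSTN, MAPT, and 5×FAD. After 5 µM Aβ Slc18a3 was 7.66, and on the other ICR arrays it was 5.64, 5.82, 5.60, and 6.11. The 5 µM Aβ and the 22-month cortex arrays held the highest of the 12 values and stood apart from their own groups.

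Slc5a7, the mean of 2 probes, was 4.60, 4.18, 4.48, and 4.39 in cortex in order of age. For NCSTN, MAPT, and 5×FAD it was 3.91, 3.27, and 3.34. Its ICR values were 5.47 after 5 µM Aβ, 2.23 after 10 µM Aβ, 2.48 and 3.19 after streptozotocin, and 4.30 after scopolamine, and those after 10 µM Aβ and streptozotocin were not well above background. The 5 µM Aβ array was the highest of the 12 for both probes, at 6.24 and 4.71, and the second of these probes was well above background on that array alone.

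Ache varied least of the 4 enzymes and transporters. In cortex it was 8.99, 9.09, 9.10, and 9.18 in order of age. Ache signals on the NCSTN, MAPT, and 5×FAD arrays were 9.56, 9.20, and 8.99. ICR hippocampus gave 9.36, 9.20, 9.01, 9.52, and 9.32. All 3 sets overlapped, and at 17 months the 2 Ache probes moved apart, with 8.68 and 9.51 against 8.90 to 9.08 and 9.09 to 9.27 at the other ages.

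Chrna7, which forms a calcium-permeable nicotinic receptor bound by Aβ in vitro, was read from 1 probe with 10 spots on each array. Its cortex values were 5.98, 6.03, 6.19, and 6.16 in order of age. Chrna7 was 7.19, 6.79, and 6.997 on the NCSTN, MAPT, and 5×FAD arrays. On the ICR arrays it was 7.32, 7.63, 7.20, 7.66, and 7.55. Cortex was below transgenic hippocampus and transgenic hippocampus below ICR hippocampus, with the closest hippocampal values, 7.19 and 7.20, almost touching.

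**Figure D1:**
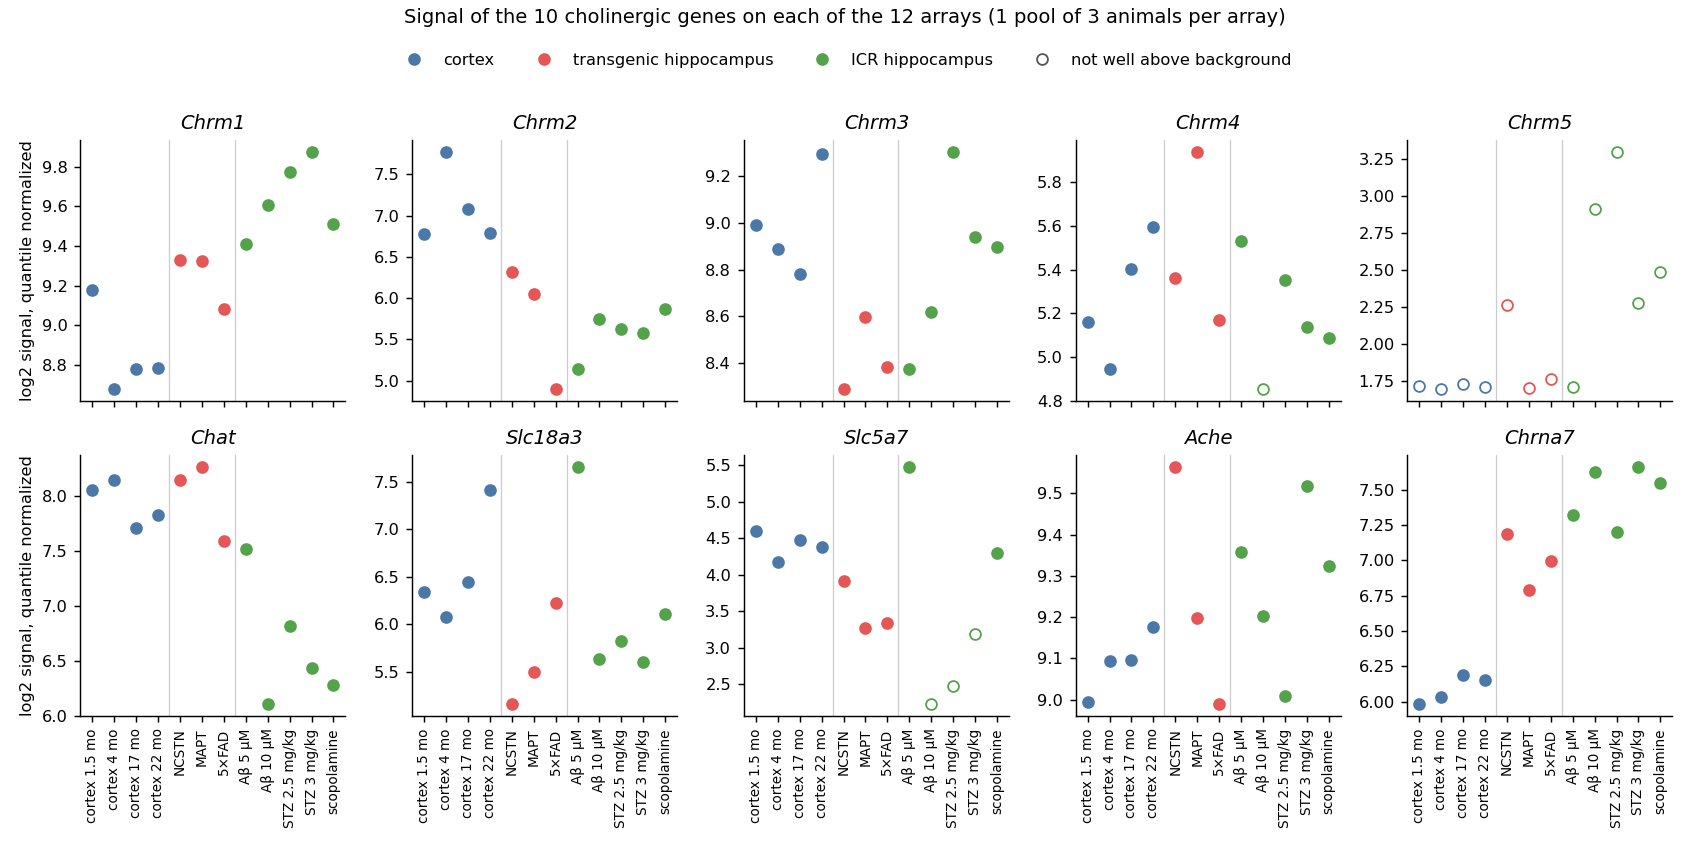
Log2 signal after quantile normalization (y axes, a separate scale for each gene) of the 10 cholinergic genes on each of the 12 arrays (x axis), with cortex in blue, transgenic hippocampus in red, and ICR hippocampus in green. Each point is 1 pool of 3 animals, and open points were not well above background. Slc18a3 and Slc5a7 are highest on the 5 µM Aβ array, Chrm2 is lowest on the 5×FAD array, and Chrna7 is lowest on the 4 cortex arrays.

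The first comparison set the scopolamine array, taken 30 min after a muscarinic blocker, against the other 4 ICR arrays. Those came from mice injected into the cerebral ventricles 14 days before, not from untreated mice. Drug, route, surgery, and time after treatment therefore cannot be told apart. The cholinergic genes did not stand out. On the scopolamine array 0 of the 10 genes differed at least 2-fold from the mean of the other 4 ICR arrays, where 5.42% of all genes did. Chrm2 was the 1 gene of the 10 outside the range of the other 4 arrays, which 43.1% of all genes were. The median log2 difference over the 10 genes was -0.01, as it was over all genes.

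Among the receptors, Chrm2 was 0.35 higher on the log2 scale (1.27-fold), at 5.87 against 5.14 to 5.75. In the deposited matrix, which the authors normalized themselves, this difference was -0.19, so its direction turned with the processing, and 4 members then lay outside the range (55.3% of all genes). Differences of the other measured receptors were -0.16 for Chrm1, 0.09 for Chrm3, and -0.13 for Chrm4, each within the spread of the other arrays. Among the presynaptic genes, Chat differed by -0.44, Slc18a3 by -0.07, and Ache by 0.05. Chrna7 differed by 0.09.

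Slc5a7 came closest to 2-fold, 0.95 higher on the log2 scale after scopolamine, at 4.30 against 2.23 to 5.47. Only 1 of the other 4 arrays, that of 5 µM Aβ, had it well above background. Without that array no reference was well above background, so no fold is given. Then 4 members lay outside the range of the remaining arrays (57.2% of all genes), and without the 10 µM Aβ array 3 did (51.2%). In the deposited matrix Slc5a7 differed by -0.07. Among 5 markers of basal forebrain cholinergic neurons, 3 were well above background on the scopolamine array and 1 or 2 on the other ICR arrays. The log2 of their summed signal was 8.15 against 7.13 to 7.89. The transcription factor Isl1 was measured on the scopolamine array only (5.56, at least 2.22-fold higher), Lhx8 was measured there (5.56) and after 10 µM Aβ (4.88), Ngfr was measured on all 12 arrays, and Gbx1 on none. The 7 choroid plexus markers had a mean log2 signal of 12.26 on this array, 12.05 and 12.22 on the Aβ arrays, and 6.48 and 7.11 on the streptozotocin arrays. The part of these markers in the Slc5a7 signal was not tested.

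**Figure D2:**
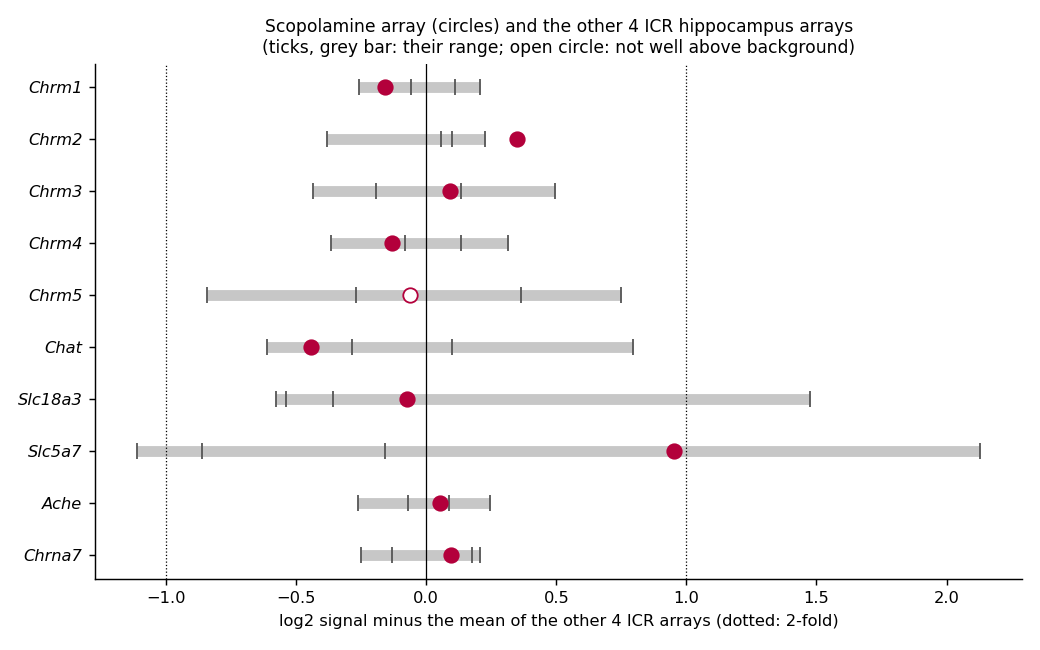
Log2 signal on the scopolamine array (circles) minus the mean of the other 4 ICR hippocampus arrays (x axis) for the 10 genes (y axis), with each other array as a tick and their range as a grey bar. Dotted lines mark 2-fold, an open circle was not well above background, and Chrm2 is the circle outside its bar.

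The remaining ICR arrays were compared in the same way. After 5 µM Aβ, 3 of the 10 genes were at least 2-fold higher than the mean of the other 4 ICR arrays, and these were the presynaptic Chat, Slc18a3, and Slc5a7. Of all genes 3.93% were at least 2-fold higher on this array. Of the 7 members measured on all 5 arrays 2 were, Chat and Slc18a3, against 1.78% of all genes so measured. Counted in either direction, 4 of the 10 genes differed 2-fold after 5 µM Aβ (5.61% of all genes). The added gene was Chrm5, listed as lower, but its signal stayed at background level throughout, so no direction is read from it. Outside the range of the other arrays were 8 of the 10 genes, against 42.5% of all genes, and among them Chrm1, Chrm2, and Chrm3 were at their lowest ICR values. After 10 µM Aβ 1 of the 10 genes differed 2-fold (5.92% of all genes), after 2.5 mg/kg streptozotocin 1 did (7.42%), and after 3 mg/kg 0 did (5.25%). In both cases the 1 gene was Slc5a7, lower and not well above background, with the 5 µM Aβ array among its references.

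Slc18a3 was 1.86 higher on the log2 scale after 5 µM Aβ (3.64-fold), and Chat was 1.10 higher (2.15-fold). Slc5a7 was listed 2.42 higher, but of the other 4 arrays it was well above background on that of scopolamine alone, and against the remaining 3 it was at least 1.86-fold higher. These are values of 1 pool against 4 other models, with no replicate. Ache, which many non-cholinergic cells also make, differed by 0.09 on the same array. With normexp background correction and an offset of 50, which draws dim signals together, Slc18a3 was 1.06 higher, Chat 0.60, and Slc5a7 0.52. In the deposited matrix the differences were 1.403 for Slc18a3, 1.10 for Slc5a7, and 0.81 for Chat. The differences of the measured muscarinic receptors were smaller, at -0.28 for Chrm1, -0.56 for Chrm2, -0.57 for Chrm3, and 0.42 for Chrm4.

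Markers of the medial habenula, a small nucleus beside the dorsal hippocampus that holds cholinergic neurons, were high on the same array. All 5 of them were well above background after 5 µM Aβ and 3 of 5 on each of the other ICR arrays. The log2 of their summed signal was 12.55 against 10.67 to 11.23, and 11.19 to 11.72 on the cortex arrays. The neuropeptide gene Tac2 was 11.86 against 9.75 to 10.57 on the other ICR arrays. Gng8 was 10.20 against 6.87 to 8.24. Pou4f1, a transcription factor of habenular neurons, was 8.08 and at least 12.4-fold higher, since it was not well above background on the others, and Gpr151 was 6.02 and at least 2.96-fold higher on the same ground. Nwd2 was 9.55 against 8.82 to 9.45. The nicotinic subunit Chrnb4, which habenular neurons express strongly, was 8.03 against 5.87 to 6.80 (3.41-fold), while Chrna3 and Chrnb3 were not well above background on any ICR array. Of the 6 thalamic markers all were measured on every ICR array, with a mean log2 signal of 9.16 on this array and 8.69 to 8.87 on the others. The basal forebrain factors Lhx8 and Isl1 were not well above background after 5 µM Aβ. The part of habenular tissue in the Chat, Slc18a3, and Slc5a7 signals was not tested.

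**Figure D3:**
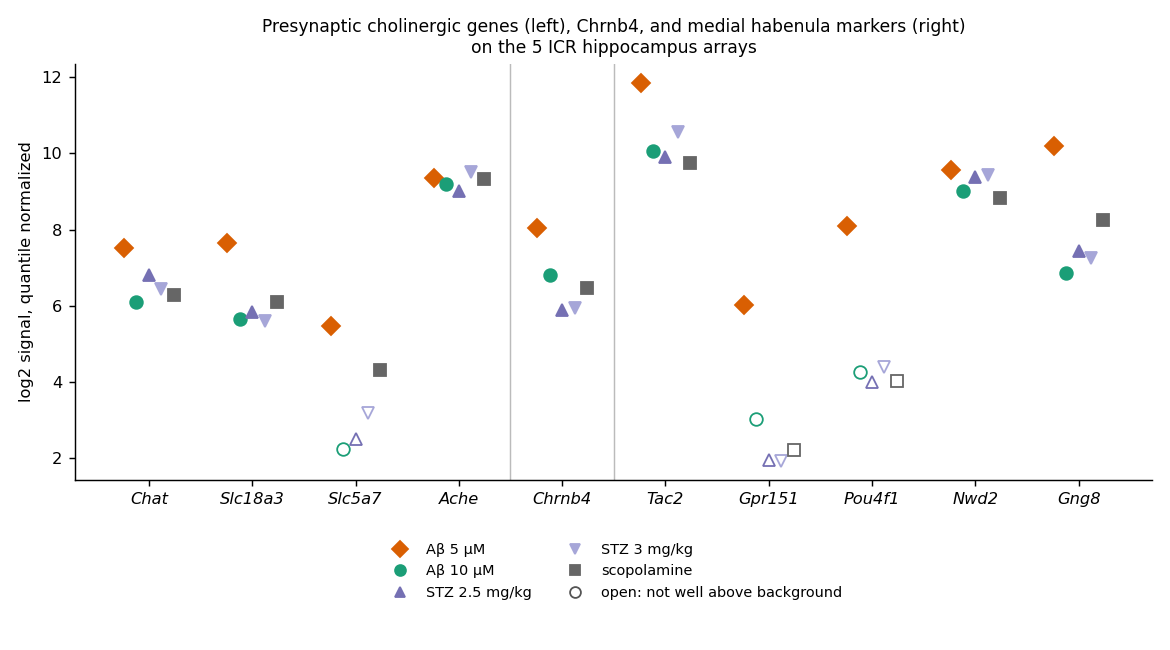
Log2 signal after quantile normalization (y axis) of the presynaptic genes and Ache, of Chrnb4, and of 5 medial habenula markers (x axis) on the 5 ICR hippocampus arrays, 1 symbol per array. Open symbols were not well above background, and the diamonds of the 5 µM Aβ array lie above all other arrays for Chat, Slc18a3, Slc5a7, Chrnb4, and all 5 markers.

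Among the transgenic arrays, Chrm2 was the only one of the 10 genes to differ 2-fold between a model and the mean of the other 2 models. On the 5×FAD array it differed by -1.28 on the log2 scale (2.43-fold lower), at 4.90 against 6.31 and 6.05. There, 1 of the 10 genes passed 2-fold against 10.3% of all genes, and the median difference was -0.25 over the 10 genes and -0.05 over all genes. On the NCSTN array 0 passed (4.81% of all genes), and on the MAPT array 0 passed (4.82%). The models also differ in age, and the effects of age and transgene cannot be told apart.

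Other differences on the 5×FAD array were 0.90 for Slc18a3 (higher), -0.61 for Chat, -0.48 for Chrm4, and -0.39 for Ache. Chrm3 differed by -0.06 and Chrna7 by 0.01. The presynaptic genes did not move one way: Slc18a3 was highest and Chat lowest of the 3 models on 5×FAD. The NCSTN array had the highest Ache, 0.47 above the mean of the other models, and the lowest Slc18a3, with a difference of -0.70. Chrm4 was highest on the MAPT array, by 0.67. Of 6 pituitary markers 5 were well above background on that array, against 2 and 3 on the other models, with a mean log2 signal of 6.80 against 4.11 and 4.09, and their part in the Chrm4 value was not tested. With normexp correction Chrm2 on 5×FAD was -0.55, under 2-fold. With the MAPT array left out, which leaves 1 reference array, Slc18a3 on 5×FAD was 1.07 higher and 2 members passed, as they did on NCSTN in the same pair of arrays (11.3% of all genes). With the NCSTN array left out, 1 passed on MAPT (10.9%). Microglial markers Aif1, Csf1r, and Cx3cr1 and astrocyte markers Gfap and Aqp4 were at least 2-fold higher on the 5×FAD array, and their part in the Chrm2 value was not tested.

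Cortex at 17 and 22 months was compared with cortex at 1.5 and 4 months. No gene of the 10 differed 2-fold between the means of 2 old and 2 young arrays, that is 0 against 3.85% of all genes. Values did not overlap for 5 of the 10 genes, against 34.7% of all genes. Chrm4, Slc18a3, Ache, and Chrna7 were higher at the older ages, by 0.45, 0.73, 0.09, and 0.16 on the log2 scale, and Chat was lower (difference of -0.34). The median difference was 0.07 over the 10 genes and 0.01 over all genes. Without the 1.5-month array 9 genes were free of overlap (66.5% of all genes), and without the 4-month array 8 were (67.5%). With normexp correction 3 were (36.5%). The 17-month array stands apart in its choroid plexus markers. All 7 were well above background there and 5 or 6 at the other ages. The log2 of their summed signal was 15.62 against 8.73 to 9.16. Ttr, the main transcript of that tissue, was 15.57 against 5.11 to 6.85. Between old and young cortex 5 of the 7 were at least 2-fold higher, and their part in the differences of the cholinergic genes was not tested.

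The largest single deviation among the ages was Slc18a3 at 22 months, 1.13 above the mean of the other three ages (2.19-fold), at 7.42 against 6.07 to 6.45. At this age 1 of the 10 genes passed 2-fold, against 3.86% of all genes. Without the 22-month array the old minus young difference of Slc18a3 was 0.24, and without the 17-month array it was 1.21, past 2-fold. Chat, which shares the locus, was 7.82 on the 22-month array, inside the range of the other ages. Chrm2 at 4 months was 0.89 above the mean of the other ages, short of 2-fold.

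Chrm2 was higher and Chrna7 lower in cortex than in either kind of hippocampus. Chrm2 averaged 7.10 ± 0.46 in cortex (SD, n = 4 arrays of different ages), 5.75 ± 0.75 in transgenic hippocampus (n = 3), and 5.59 ± 0.28 in ICR hippocampus (n = 5). Against transgenic hippocampus it was 1.35 higher in cortex (2.55-fold), the 1 of the 10 genes past 2-fold, where 8.95% of all genes were. Against ICR hippocampus it was 1.51 higher (2.85-fold). Without the 5×FAD array the first of these differences was 0.92, and with normexp correction it was 0.67, both under 2-fold.

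Chrna7 averaged 6.09 ± 0.10 in cortex, 6.99 ± 0.20 in transgenic hippocampus, and 7.47 ± 0.20 in ICR hippocampus. The cortex mean differed by -0.90 from transgenic hippocampus and by -1.38 from ICR hippocampus (2.60-fold lower), larger than the spread among arrays of a group. Between cortex and transgenic hippocampus 4 of the 10 genes did not overlap, Chrm2, Chrm3, and Slc5a7 being higher in cortex and Chrna7 lower, against 31.5% of all genes. Chrm3 was 0.57 higher and Slc5a7 0.90 higher. With normexp correction Slc5a7 was 0.16 higher and Chrna7 differed by -0.49. Slc18a3 was 0.94 higher, with overlap. Without the 5×FAD array 7 genes did not overlap (41.2% of all genes).

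Against ICR hippocampus, 3 of the 10 genes passed 2-fold (12.7% of all genes), Chrm2 and Chat higher in cortex and Chrna7 lower. Chat was 1.30 higher in cortex than in ICR hippocampus (2.46-fold) but differed by -0.07 from transgenic hippocampus. Without overlap were 4 of the 10 genes (35.3% of all genes), Chrm1, Chrm2, Chat, and Chrna7. Strain, age, and treatment differ with region in this comparison.

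Between the 2 kinds of hippocampus, Chat was 1.37 higher in transgenic C57BL/6 than in ICR mice (2.58-fold), the 1 of the 10 genes past 2-fold against 6.6% of all genes. Slc18a3 differed by -0.54, so it was not higher along with Chat. Slc5a7 was listed at -0.03, but it was well above background on 3 transgenic arrays and on only 2 of the 5 ICR arrays. No direction is therefore given for it. Values did not overlap for 3 of the 10, against 21.7% of all genes, with Chat higher and Chrm1 and Chrna7 lower in the transgenic mice. Strain, age, treatment, and the sex-linked signal cannot be told apart here.

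**Figure D4:**
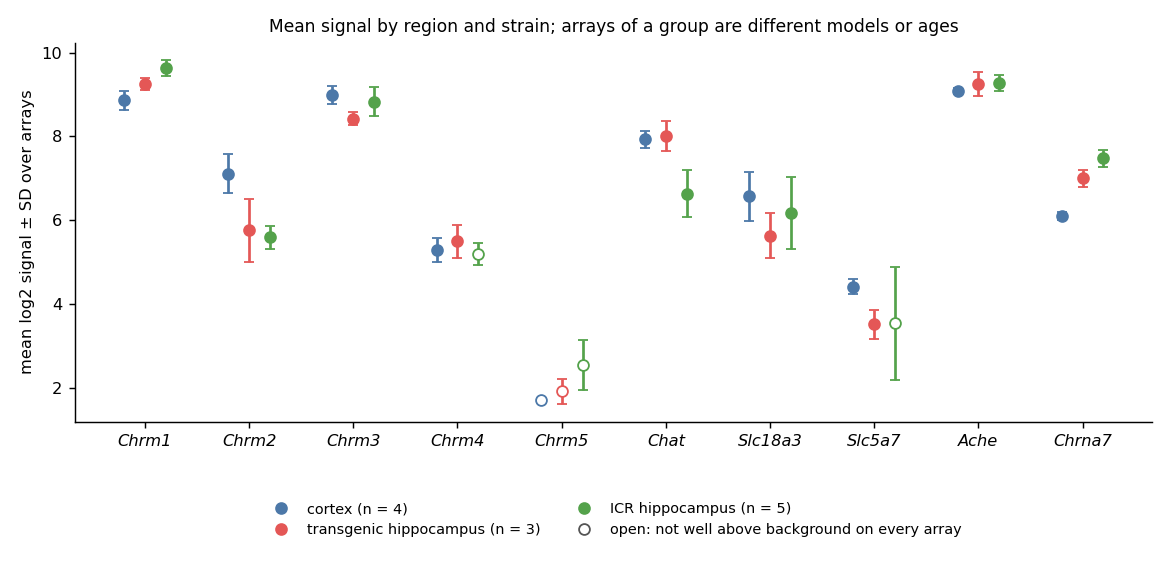
Mean log2 signal (y axis) of the 10 genes (x axis) in cortex (n = 4), transgenic hippocampus (n = 3), and ICR hippocampus (n = 5), with bars of 1 SD over arrays of different models or ages. Open points were not well above background on every array of the group. Chrm2 is highest in cortex, Chrna7 lowest there, and Chat lowest in ICR hippocampus.

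Around these genes, 66 others of cholinergic signalling were read: nicotinic subunits, choline supply and breakdown, helpers of nicotinic receptors, the Gq and Gi arms of muscarinic signalling, and receptor regulators. On the scopolamine array 2 of the 66 were at least 2-fold higher and 2 lower, where 3.2% of all genes were higher and 2.22% lower, and none of these 4 was well above background on all 5 arrays. Chrna10 was 1 of those higher, measured among ICR arrays on the scopolamine array alone (5.54, at least 2.16-fold higher). After 5 µM Aβ 3 of 66 were higher and 0 lower (3.93% and 1.68% of all genes), Chrnb4 being the only one measured on all 5 arrays. Between old and young cortex 0 of 66 passed 2-fold in either direction.

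On the 5×FAD array 3 of 66 were at least 2-fold higher and 3 lower (5.81% and 4.49% of all genes), and 4 of these were measured on all 3 transgenic arrays. Prima1, which anchors acetylcholinesterase in the membrane, was 1.02 higher on the log2 scale, at 9.14 against 8.05 and 8.19, while the difference of Ache itself was -0.39. Gna14, a Gq-class α subunit, was 1.29 higher. The calcium-stimulated adenylyl cyclase Adcy8 and the nicotinic subunit Chrna5 were lower, with differences of -1.11 and -1.13. Prima1 also varied among the cortex ages, at 5.93, 8.15, 7.12, and 8.27 in order of age, each of the 1.5-, 4-, and 22-month values being over 2-fold from the mean of the other ages.

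Between cortex and transgenic hippocampus 6 of 66 were at least 2-fold higher and 5 lower in cortex (4.17% and 4.78% of all genes), and between cortex and ICR hippocampus 7 were higher and 7 lower (6.16% and 6.49%). Higher in cortex by both comparisons were phospholipase Plcb4 (by 1.83 and 1.71), the regulators Rgs4 (1.69 and 1.78), Rgs7 (1.31 and 1.54), and Grk5 (1.36 and 1.003), and Colq (1.09 and 1.43), which tethers asymmetric acetylcholinesterase. Lower in cortex by both were Chrna1 (-1.58 and -1.58) and the choline transporter-like Slc44a5 (-2.58 and -2.95). Itpr1, the receptor for inositol trisphosphate, was 1.09 higher than in transgenic hippocampus, and Prima1 was lower (-1.10). Against ICR hippocampus Chrna2 was 1.39 higher, and Arrb2 and Lypd1 differed by -1.23 and -1.10. The 2 comparisons share the cortex arrays.

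To describe which genes followed a receptor or Ache most closely, values were centred within cortex, transgenic, and ICR arrays and correlated over the 12 arrays with 12381 other genes measured on all of them. Among the 3 genes most alike to Chrm1 were Golga7b (Pearson r of 0.943) and Gemin2 (0.937). Esd (0.946), Scfd1 (0.944), and Lsm12 (0.932) were closest to Chrm2. Closest to Chrm3 were Glp2r (0.875), Neurod6 (0.870), and Zfp607b (0.866), and to Ache Fam181a (0.933), Lhfpl3 (0.922), and Zfp346 (0.916). The points share the normalization and the reference of each group, and such values are the highest among many genes over few arrays.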

How the data were processed

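RNA pooled from 3 animals per model was hybridized to 12 one-colour Agilent mouse arrays, scanned, and read with the Feature Extraction software. Per array, the authors deposited spot intensity values (foreground, local background, and processed signal) and flags, without normalization between arrays, and a matrix of processed intensity values on a scale of its own, with no column of another sample (0). Slide and scan date were not analysed here.

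From the deposited processed intensity, log2 values were taken, outlier spots by the software's flags were dropped (110 to 234 on an array), spots of a probe were averaged, and the 12 arrays were quantile normalized, as the methods state. No filter was applied to dim probes, so that every gene could be accounted for. Accessions were matched, without versions, to the RefSeq gene table of GRCm38.p6, which named 27508 of 39429 probes, and probes of a gene were averaged. A gene was not well above background where none of its probes was, a probe being so where at least 50% of its spots were flagged. "At least N-fold" sets the brighter side against, per dim array, whichever is higher of the gene's own signal and the lowest signal of any probe well above background. With 1 array per model no test between models was run, there are no p-values, and precision is limited by the small number of arrays. Within cortex and ICR arrays, Dixon's test was applied to single outlying values. Counts at 2-fold are read against the share of all genes.

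The genes and lists were chosen with earlier results of these data known. Named genes were the 10 members, pathway genes past 2-fold and measured on every array compared, and the 3 genes most alike to Chrm1, Chrm2, Chrm3, and Ache (SD of at least 0.1). Chrna3, Chrnb3, Chrna10, and the named markers were chosen after their values were seen, and a few genes under these rules, and an allele, are not reported here. Alternatives were scaling to the 75th percentile, a 1.4-fold filter (36520 probes), normexp with an offset of 50, the deposited matrix, the brightest probe, normalization within a group, the median as reference, each array left out, other fold thresholds, and ICR in place of transgenic arrays. Normexp used the median foreground, since the mean was not in the columns used here. The scripts were tested on simulated data, and quantile normalization differed from that of limma 3.58.1 by at most 5.33e-15. Python 3.11.15, numpy 2.4.6, pandas 2.3.3, and R 4.3.3 were used.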

Additional observations from a re-analysis of the deposited data

Results flagged for a closer look

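Within the 5 ICR hippocampus arrays, the Slc18a3 signal of the 5 µM Aβ array stood apart from the other 4. Its gap to the nearest array, that of scopolamine, was 0.755 of the whole range of the group, above the limit of Dixon's test for 5 values. The log2 signal was 7.66 there and 5.60 to 6.11 on the other arrays. Of 20 sets of values looked at, for the 10 genes in the cortex and the ICR arrays, this was the 1 that passed, and chance passes about 1 in 20. Chat and Slc5a7 were highest on the same array without passing this limit, and markers of the medial habenula were high there too, whose part in the value was not tested.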

How the results depend on the processing

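Of 710 values of single genes recomputed under the alternatives, 649 moved by less than the spread of the reference arrays and 61 by more, and 0 differences past 2-fold turned in sign. Counts of members at least 2-fold different moved as follows. For scopolamine the count was 0, and 1 with the brightest probe, the median reference, or a 1.5-fold threshold, with a range of 0 to 1 when each array was left out, and the count outside the range of the other arrays was 1, and 4 in the deposited matrix, with a range of 1 to 4. For 5×FAD the count was 1, and 2 with scaling to the 75th percentile or in the deposited matrix, 0 with normexp or at 3-fold, and 3 at 1.5-fold (1 to 2 with an array left out). For NCSTN it was 0, and 1 with normalization within the group and 3 at 1.5-fold (0 to 2). For MAPT it was 0, and 1 at 1.5-fold (0 to 1). For old against young cortex it was 0, and 1 at 1.5-fold (0 to 1), and the count without overlap was 5, and 3 with normexp (6 to 9). For cortex against transgenic hippocampus it was 1, and 2 with scaling to the 75th percentile, 0 with normexp or at 3-fold, 3 with the median reference or with ICR hippocampus, and 4 at 1.5-fold (1 to 2), and the count without overlap was 4 (4 to 7). Normexp with its offset moved the most values because it draws dim signals together by construction. No paired analysis was possible because each model has 1 array. Dim genes (Chrm4, Chrm5, and Slc5a7) are limited by background, and with 1 pool per model a difference between models cannot be told apart from one between pools or hybridizations.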
